A study of Mus musculus with 8 samples.

Results

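The genes described here are 42 genes of the endoplasmic reticulum (ER) stress response, of the ATF4 pathway and of amino acid supply, picked by symbol from the 51822 gene symbols of the RNA sequencing tables. They were sorted by role into 8 sensors and transcription factors, 4 stress effectors, 13 protein folding genes, 8 amino acid enzymes and 9 amino acid transporters. The enzymes and transporters together are called the amino acid supply genes. Mouse osteoblast progenitors, named MC3T3-E1 (an osteoblastic cell line) in the sample labels and calvarial cells in the methods, were cultured in osteogenic α-MEM. Control and LAMZ cultures alike held 10% serum, β-glycerophosphate at 10 mM, dexamethasone at 10 nM and ascorbic acid. LAMZ (locamidazole, an aminoindazole derivative) was given at 1 μM, control cells received DMSO, and RNA was taken at 2 times, day 7 and day 14. There were 2 libraries for each of these 4 groups. The labels do not say whether these came from separate cultures, so that the p values below measure only the spread between these 8 samples, which may be technical.

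When unfolded proteins build up in the ER, the sensors IRE1α (Ern1), PERK and ATF6 raise the transcription of chaperones through XBP1 and cleaved ATF6. PERK, like the kinases that sense amino acid shortage, heme or double-stranded RNA, phosphorylates eIF2α, which slows translation in general but favors that of the Atf4 mRNA. ATF4 then activates genes for amino acid synthesis and uptake, tRNA charging and stress effectors such as CHOP (Ddit3). Osteoblasts secrete large amounts of type I collagen and use both arms, ATF4 being known as a regulator of their amino acid import and late differentiation.

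Expression is given as RPKM (reads per length of gene and per mapped reads), which allows levels to be compared between genes per length. The libraries held from 3463909 to 5832554 mapped reads, as recovered from the RPKM values. Differences are log2 fold changes of RPKM + 1, which understate the change of genes with a low RPKM, given ± the standard error of the fit. The adjusted p values come from limma with the Benjamini-Hochberg adjustment over the 12514 genes tested, where at least 2 libraries reached an RPKM of 1. A gene was counted as changed at an adjusted p under 0.05. Of the 42 genes, 41 were tested. Slc7a11 was not, and Slc7a3 was tested only because of its LAMZ libraries of day 14.

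The groups differed in cell type markers too. The 11 osteoblast markers were all detected in every group, and their summed RPKM was 7207 to 8938 in control and 10436 to 11024 in LAMZ-treated cells on day 7, and 10700 to 11116 against 16965 to 18915 on day 14. The summed RPKM of 13 macrophage markers was 473 to 619 in control cells on day 7 and 1177 to 1201 on day 14, but 7.59 to 9.13 and 7.19 to 7.96 in LAMZ-treated cells, in which C1qa, C1qb, C1qc, Tyrobp, Ctss and Laptm5 were at 0. In bulk RNA, fewer cells of a type and less RNA per cell cannot be told apart. The summed RPKM of 5 chondrocyte markers was 157 to 230 in control and 433 to 457 in LAMZ-treated cells on day 7, and 90.5 to 101 against 312 to 329 on day 14. The part of these markers in the results below was not tested.

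The promoters were searched for the elements through which these pathways are known to act, since the folding genes are known targets of one set and the amino acid genes of another. RefSeq promoter windows (GRCm38.p6, 250 bases before to 50 after a start site) were found for 36 of the 42 genes. The ER stress element ERSE, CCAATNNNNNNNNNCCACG on either strand, to which XBP1 and ATF6 bind together with NF-Y, was present in 6 of 12 folding genes and in no other group, against 0.12% of all 32851 windows. ERSE-II, ATTGGNCCACG, was present in Herpud1 alone among the genes described here and in 0.037% of all windows. The bases of each match are in capitals below, and each sequence reads 5′ to 3′ on the strand shown.
Hspa5 ERSE, chr2:34772010-34772058 (+): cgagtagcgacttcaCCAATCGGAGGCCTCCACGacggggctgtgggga
Calr ERSE, chr8:84847060-84847108 (+): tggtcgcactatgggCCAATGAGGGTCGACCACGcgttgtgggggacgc
Hsp90b1 ERSE, chr10:86705623-86705671 (-): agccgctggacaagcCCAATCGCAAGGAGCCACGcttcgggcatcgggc
Hsp90b1 ERSE, chr10:86705518-86705566 (+): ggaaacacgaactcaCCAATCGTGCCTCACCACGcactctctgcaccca
Canx ERSE, chr11:50325785-50325833 (-): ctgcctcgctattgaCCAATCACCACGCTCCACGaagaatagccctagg
Pdia6 ERSE, chr12:17266476-17266524 (+): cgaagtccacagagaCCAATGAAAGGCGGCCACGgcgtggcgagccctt
Dnajc3 ERSE, chr14:118937812-118937860 (+): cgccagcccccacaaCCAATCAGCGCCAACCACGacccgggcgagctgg
Herpud1 ERSE-II, chr8:94386362-94386402 (+): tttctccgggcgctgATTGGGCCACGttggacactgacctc

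The core of the C/EBP-ATF response element (CARE), TGATGNAA on either strand, to which ATF4 binds with a C/EBP partner, was found in 3.97% of all windows. It was present in 2 of 4 effectors (Chac1 and Trib3), 2 of 8 enzymes (Asns and Pycr1), 2 of 6 transporters (Slc1a4 and Slc7a11) and 1 of 12 folding genes (Herpud1), and in none of 6 sensors and transcription factors. Herpud1 thus held an ERSE-II and a CARE match, which do not overlap. The UPRE element, TGACGTGG, was present in 0.68% of all windows and in none of those of the genes described here. The matches that lie before the start site of a tested gene are shown, with the CARE bases in capitals. These letters describe the windows and were not tested for binding.
Asns CARE, chr6:7693210-7693247 (-): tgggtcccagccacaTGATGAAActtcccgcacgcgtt
Pycr1 CARE, chr11:120643829-120643866 (-): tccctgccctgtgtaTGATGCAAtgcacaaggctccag
Chac1 CARE, chr2:119351034-119351071 (-): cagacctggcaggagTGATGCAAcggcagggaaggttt
Herpud1 CARE, chr8:94386302-94386339 (-): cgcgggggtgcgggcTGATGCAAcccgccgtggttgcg

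LAMZ against control was compared on each day to ask which of these genes changed in the treated cells. On day 14, 34 of the 41 tested genes were higher in LAMZ-treated cells and none was lower in limma (37 and 0 at an unadjusted p under 0.05), whereas 6.96% of all tested genes were higher and 16% lower, or 23% in either direction. Without Slc7a3, which passed the filter only through these libraries, 33 of 40 were higher. On day 7, 6 were higher (Creb3l1, Chac1, P4hb, Asns, Shmt2 and Slc7a1) and 2 were lower (Atf5 and Slc1a5), against 4.35% and 8.49% of all tested genes. The median log2 fold change of the 41 genes was 0.29 on day 7 and 1.00 on day 14, beside -0.08 and -0.15 for all tested genes. With each library scaled to the same sum of RPKM, the median of day 7 turned to -0.0034, beside -0.31 for all tested genes. Under that scaling, 31 of the 41 genes were higher and 1 lower on day 14, beside 474 and 5422 of 12670 tested genes. When median centred, 39 were higher and 0 lower, beside 1608 and 1249 of 12514. The length and GC correction also gave 39 and 0, beside 1543 and 1309 of 12186. Averaged over both days, 30 were higher and none was lower in limma (35 and 0 at an unadjusted p under 0.05), against 9.12% and 20.3% of all tested genes. The libraries of the 2 treatments did not overlap in 39 genes higher and 1 lower on day 14, where 20.1% and 44.2% of all tested genes did so. Several of the genes overlap another gene in the annotation (Atf5 and Nup62, Manf and Dcaf1, Psph and Cct6a, Shmt2 and Ndufa4l2, Slc6a9 and B4galt2, for example), and their shared reads cannot be told apart.

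**Figure D1:**
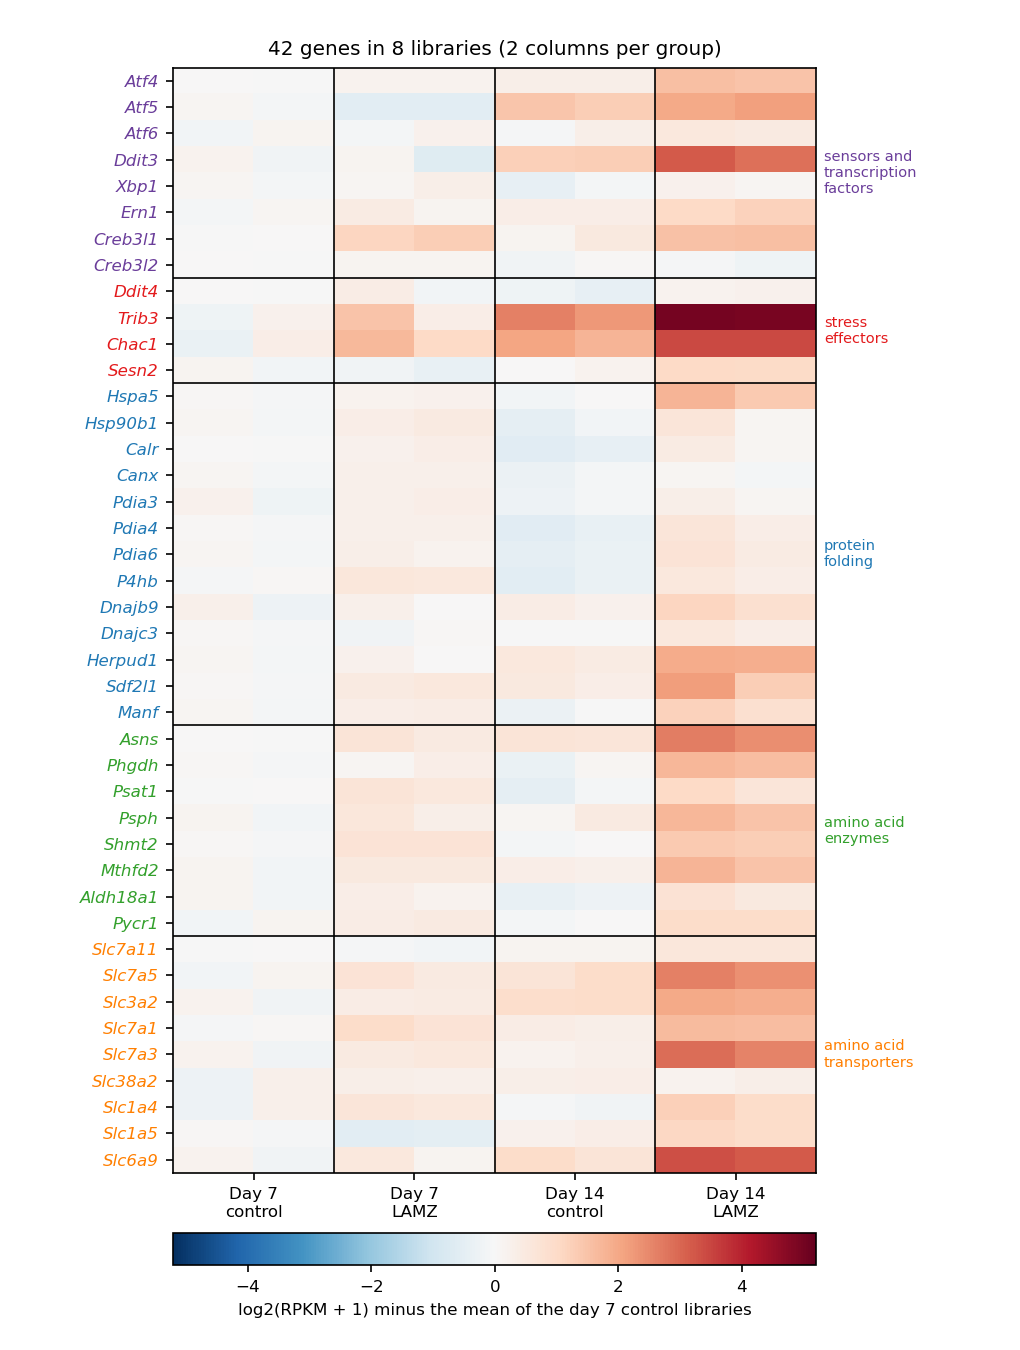
Level of the 42 genes in each of the 8 libraries (columns, 2 per group), as log2(RPKM + 1) minus the mean of the day 7 control libraries, with rows grouped by role. The darkest red is in the 2 LAMZ libraries of day 14, where Trib3, Chac1, Ddit3, Slc6a9 and Slc7a3 were farthest above day 7 control.

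Among the sensors and transcription factors, 5 of 8 were higher with LAMZ on day 14 (Atf4, Atf5, Ddit3, Ern1 and Creb3l1), beside 6.96% of all tested genes. On day 7, Creb3l1 was higher and Atf5 lower, beside 4.35% and 8.49% of all tested genes. For Atf4 (chr15:80255184-80257541, GRCm38), RPKM was 57.1 and 55.3 in control cells and 64.3 and 63.7 in LAMZ-treated cells on day 7. On day 14, Atf4 was at 68.9 and 69.3 in control and 169.6 and 157 in LAMZ-treated cells. The LAMZ libraries lay above the control libraries on both days, with a log2 fold change of 0.19 ± 0.10 on day 7 (adjusted p = 0.298) and of 1.23 ± 0.10 on day 14 (adjusted p = 0.000202). Atf5, a related factor that is translated under the same control, was at RPKM 20.4 and 17.4 without and 12.7 and 12.5 with LAMZ on day 7. On day 14, Atf5 was at 52.8 and 46.9 without and 77 and 87.05 with LAMZ. It was thus below control on day 7 (-0.54 ± 0.13, adjusted p = 0.0315) and above it on day 14 (0.71 ± 0.13, adjusted p = 0.00662), with no overlap on either day. Leaving out the second day 14 LAMZ library gave 0.62 (adjusted p = 0.0528). The fall of day 7 was not called in 3 of the 8 runs that leave out 1 library (-0.55 to -0.43). It was not called either when the libraries were median centred (-0.43, adjusted p = 0.0676), quantile normalized (-0.46, adjusted p = 0.0528) or corrected for length and GC content (-0.34, adjusted p = 0.0527), with no filter (adjusted p = 0.0615) or with the day 7 groups fitted alone (adjusted p = 0.0803).

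Ddit3 (chr10:127290774-127296288), which encodes CHOP, a factor of prolonged ER stress, had an RPKM of 6.50 and 4.89 (day 7 control), 6.43 and 3.25 (day 7 LAMZ), 14.8 and 14.98 (day 14 control) and 60.1 and 47.1 (day 14 LAMZ). The treatments overlapped on day 7 (-0.24 ± 0.26, adjusted p = 0.593) and were far apart on day 14 (1.77 ± 0.26, adjusted p = 0.00249). Ddit3 overlaps Mars on the opposite strand, and since no use of strand in the counting is stated, reads of the 2 genes cannot be told apart there. Mars itself, a tRNA synthetase gene, was higher on day 14 by 0.63 ± 0.14 (adjusted p = 0.0141).

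Xbp1, whose mRNA is spliced by IRE1α to encode the active factor, had an RPKM of 28.5 and 24.4 (day 7 control), 28.1 and 32.5 (day 7 LAMZ), 19.3 and 24.2 (day 14 control) and 30.7 and 28.3 (day 14 LAMZ). This counts spliced and unspliced mRNA as one. Its log2 fold change was 0.19 ± 0.15, adjusted p = 0.461 on day 7 and 0.43 ± 0.15, adjusted p = 0.0755 on day 14. Ern1, the gene of IRE1α itself, was at RPKM 1.82 and 2.33 without and 3.16 and 2.40 with LAMZ on day 7. On day 14, Ern1 was at 2.87 and 2.84 without and 5.29 and 5.94 with LAMZ, a rise there (0.78 ± 0.15, adjusted p = 0.00883). Without the second day 14 LAMZ library, the value for Ern1 was 0.71 (adjusted p = 0.0667). Creb3l1 encodes OASIS, an ER membrane factor known to drive type I collagen transcription in osteoblasts, and had an RPKM of 19.4 and 19.4 in control cells and 43.2 and 48.4 in LAMZ-treated cells on day 7. On day 14, Creb3l1 was at 21.4 and 28.04 in control and 57.05 and 59.7 in LAMZ-treated cells. It was the factor with about the same rise on both days (1.20 ± 0.14, adjusted p = 0.00199 and 1.22 ± 0.14, adjusted p = 0.000951), and the difference between the days was 0.02 ± 0.20, adjusted p = 0.973. Atf6, the cleaved sensor, and Creb3l2, a relative of Creb3l1 known from cartilage, ranged from 4.17 to 7.29 and from 9.11 to 12.04 RPKM over the 8 libraries, with day 14 log2 fold changes of 0.38 ± 0.17, adjusted p = 0.155 and -0.09 ± 0.12, adjusted p = 0.652.

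Of the 4 stress effectors, Trib3, Chac1 and Sesn2 were higher with LAMZ on day 14, and Chac1 was higher on day 7. The shares of all tested genes that were higher on these days were 6.96% and 4.35%. Trib3 encodes a pseudokinase that is induced by ATF4 and CHOP, and had an RPKM of 1.25 and 2.04 (day 7 control), 6.29 and 2.35 (day 7 LAMZ), 15.1 and 11.6 (day 14 control) and 81.7 and 78.5 (day 14 LAMZ). The first day 7 LAMZ library stood well above the second, and the day 7 value was 0.92 ± 0.33, adjusted p = 0.115. The day 14 libraries of the 2 treatments were clearly apart (2.51 ± 0.33, adjusted p = 0.00163). Chac1, a glutathione-degrading enzyme, was at RPKM 2.27 and 4.23 without and 12.2 and 7.39 with LAMZ on day 7. On day 14, Chac1 was at 16.2 and 12.97 without and 43.4 and 43.04 with LAMZ. It rose by 1.35 ± 0.27 on day 7 (adjusted p = 0.0164) and by 1.51 ± 0.27 on day 14 (adjusted p = 0.00585). The call of day 7 was lost without the first LAMZ library (1.02) or the first control library (1.01) of that day. In the day 7 control libraries, these levels rest on 10 and 15 reads for Trib3 and on 14 and 24 for Chac1. Sesn2, the product of which restrains mTORC1 when leucine is low, had an RPKM of 9.85 and 8.14 in control cells and 7.83 and 6.68 in LAMZ-treated cells on day 7. On day 14, Sesn2 was at 9.003 and 10.4 in control and 19.3 and 18.8 in LAMZ-treated cells. Its libraries were lowest with LAMZ on day 7 (-0.27 ± 0.14, adjusted p = 0.245) and highest with LAMZ on day 14 (0.91 ± 0.14, adjusted p = 0.00306). Ddit4, another mTORC1 inhibitor, lay between 14.2 and 25.9 RPKM, with a day 14 value of 0.53 ± 0.17, adjusted p = 0.0612.

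**Figure D2:**
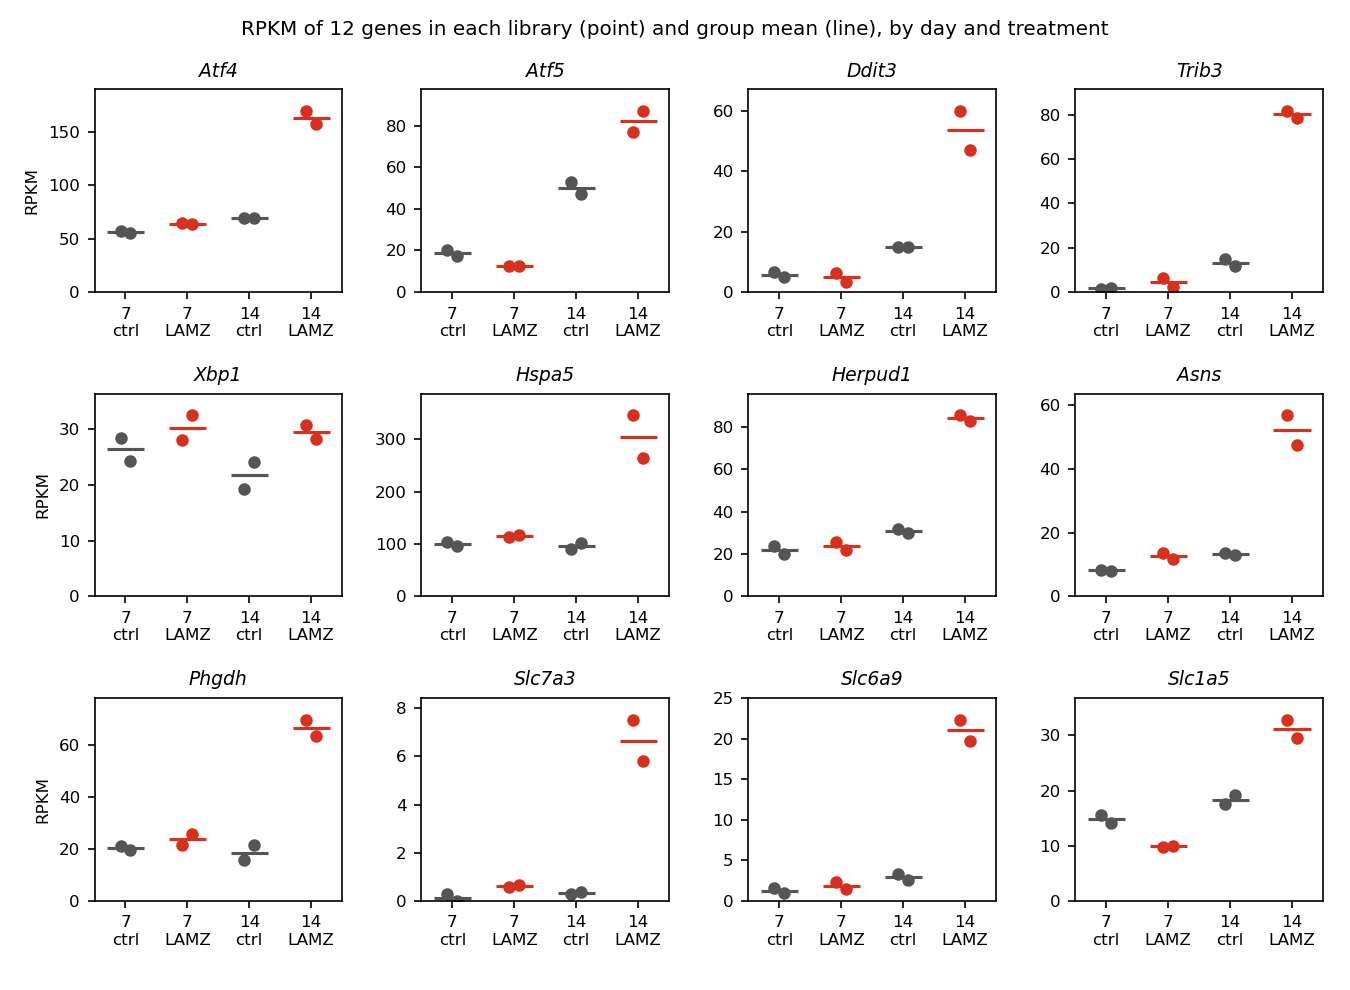
RPKM of 12 of the genes in each library (points) with the group mean (line), in control (grey) and LAMZ-treated (red) cells on day 7 and day 14. In each panel but that of Xbp1, both LAMZ libraries of day 14 lie above the other 6 libraries.

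The 13 protein folding genes were higher with LAMZ on day 14 in 11 cases, Canx and Pdia3 being the exceptions. P4hb was the only one higher on day 7. The shares of all tested genes that were higher on these days were 6.96% and 4.35%. All 13 folding genes were called on day 14 when median centred or with the length and GC correction. All tested genes then had 1608 of 12514 and 1543 of 12186 higher. Quantile normalization gave 10 calls on that day, beside 1280 of 12514 tested genes, and the same sum of RPKM 8, beside 474 of 12670. The median log2 fold change of the folding genes was 0.91 on day 14 and 0.27 on day 7. For all tested genes it was -0.15 and -0.08. With each library scaled to the same sum of RPKM, the folding median of day 7 turned to -0.035, beside -0.31 for all tested genes. Hspa5 (chr2:34771970-34777547), the gene of the central ER chaperone BiP, had an RPKM of 104 and 96.7 in control cells and 114 and 118 in LAMZ-treated cells on day 7. On day 14, Hspa5 was at 90.9 and 103 in control and 346 and 263 in LAMZ-treated cells. The log2 fold change was 0.21 ± 0.15, adjusted p = 0.428 on day 7, and Hspa5 had the largest rise of the group on day 14 (1.63 ± 0.15, adjusted p = 0.000307). Herpud1, part of the machinery that removes misfolded ER proteins, was at RPKM 23.8 and 19.9 without and 25.8 and 21.97 with LAMZ on day 7. On day 14, Herpud1 was at 31.8 and 29.9 without and 85.5 and 82.8 with LAMZ. Its rise on day 14 came next (1.42 ± 0.13, adjusted p = 0.000317), after 0.13 ± 0.13, adjusted p = 0.589 on day 7. Next was Sdf2l1, a BiP partner, with an RPKM of 5.03 and 4.69 (day 7 control), 7.19 and 7.62 (day 7 LAMZ), 7.23 and 6.39 (day 14 control) and 25.7 and 13.3 (day 14 LAMZ). The first day 14 LAMZ library of Sdf2l1 was well above the second (1.33 ± 0.25, adjusted p = 0.00805). Without it the value was 0.88, and leaving out the second day 14 control library gave 1.25 (adjusted p = 0.0556).

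Manf, a stress-induced ER protein that is also secreted, had an RPKM of 22.4 and 19.5 in control cells and 27.1 and 27.8 in LAMZ-treated cells on day 7. On day 14, Manf was at 16.8 and 20.6 in control and 48.9 and 37.7 in LAMZ-treated cells. It rose on day 14 (1.17 ± 0.16, adjusted p = 0.00199). The protein disulfide isomerases, which form and rearrange the disulfide bonds of secreted proteins, were expressed at higher levels. Pdia4 was at RPKM 89.9 and 81.8 without and 103 and 104 with LAMZ on day 7. On day 14, Pdia4 was at 55.9 and 65.6 without and 134 and 110.3 with LAMZ. It rose on day 14 (0.99 ± 0.14, adjusted p = 0.00212). Pdia6 was at 85.5 and 74.9 without and 99.7 and 91.8 with LAMZ on day 7. On day 14, Pdia6 was at 58.1 and 63.1 without and 133 and 107 with LAMZ, a rise of 0.97 ± 0.14, adjusted p = 0.00271. P4hb, which is also a subunit of the collagen prolyl 4-hydroxylase, had the highest RPKM of the 42 genes, with 394 and 434 (day 7 control), 614 and 606 (day 7 LAMZ), 280.3 and 321 (day 14 control) and 604 and 525 (day 14 LAMZ). Its LAMZ libraries stood above control on day 7 (0.56 ± 0.13, adjusted p = 0.032) and day 14 (0.91 ± 0.13, adjusted p = 0.00263). The P4hb call of day 7 was lost in 6 of the 8 runs that leave out 1 library (0.49 to 0.63).

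The lectin chaperone Calr, which holds glycoproteins during folding, had an RPKM of 317 and 301 (day 7 control), 359 and 391 (day 7 LAMZ), 206 and 231 (day 14 control) and 411 and 336 (day 14 LAMZ). It rose on day 14 (0.77 ± 0.14, adjusted p = 0.00656), and without the first day 14 LAMZ library the value was 0.62 (adjusted p = 0.0516). Hsp90b1, the ER member of the HSP90 family, was at 129 and 111 without and 153 and 166 with LAMZ on day 7. On day 14, Hsp90b1 was at 86.4 and 109.7 without and 187 and 129 with LAMZ. Its 2 LAMZ libraries of day 14 were far apart, and the rise of 0.67 ± 0.20, adjusted p = 0.0442 was lost in 5 of the 8 runs, with 0.41 (adjusted p = 0.224) without the first of them. Dnajb9 and Dnajc3 encode co-chaperones of BiP. RPKM of Dnajb9 was 6.97 and 4.53 in control cells and 6.90 and 5.65 in LAMZ-treated cells on day 7. On day 14, Dnajb9 was at 7.598 and 6.77 in control and 13.3 and 10.9 in LAMZ-treated cells. That of Dnajc3 was 17.3 and 15.8 without and 14.6 and 17.5 with LAMZ on day 7. On day 14, Dnajc3 was at 16.1 and 16.5 without and 24.98 and 21.1 with LAMZ. Their rises on day 14 (0.68 ± 0.19, adjusted p = 0.0403 and 0.47 ± 0.14, adjusted p = 0.0407) were each lost in 6 of the 8 runs, with values of 0.55 to 0.81 and 0.35 to 0.59. Canx and Pdia3, the membrane lectin chaperone and the isomerase that works with it, had day 14 values of 0.20 ± 0.13, adjusted p = 0.306 and 0.40 ± 0.17, adjusted p = 0.122, with their LAMZ libraries above the control libraries.

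All 8 amino acid enzymes were higher with LAMZ on day 14, and their LAMZ libraries lay above the control libraries on day 7 too, where 20.4% of all tested genes did so. Asns and Shmt2 were called on day 7. The shares of all tested genes called higher were 4.35% on day 7 and 6.96% on day 14. The median log2 fold change of the enzymes was 0.48 on day 7 and 1.31 on day 14. Asns (chr6:7675169-7693254), asparagine synthetase and a standard ATF4 target, had an RPKM of 8.24 and 8.13 in control cells and 13.7 and 11.7 in LAMZ-treated cells on day 7. On day 14, Asns was at 13.8 and 13.02 in control and 56.8 and 47.6 in LAMZ-treated cells. It rose on day 7 (0.57 ± 0.13, adjusted p = 0.0272) and more so on day 14 (1.88 ± 0.13, adjusted p = 7.69e-05). Its call of day 7 was lost in 4 of the 8 runs (0.47 to 0.68).

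The serine synthesis enzymes act in the order Phgdh, Psat1 and Psph. Phgdh was at RPKM 20.9 and 19.4 without and 21.5 and 25.7 with LAMZ on day 7. On day 14, Phgdh was at 15.7 and 21.4 without and 69.5 and 63.4 with LAMZ. It rose on day 14 (1.80 ± 0.17, adjusted p = 0.000295) with a day 7 value of 0.21 ± 0.17, adjusted p = 0.451. Psat1 was at RPKM 11.9 and 12.4 (day 7 control), 20.1 and 18.2 (day 7 LAMZ), 8.41 and 11.1 (day 14 control) and 26.2 and 19.6 (day 14 LAMZ). Psph, the lowest of the enzymes, was at 2.76 and 2.001 (day 7 control), 4.06 and 3.15 (day 7 LAMZ), 2.58 and 3.68 (day 14 control) and 10.1 and 8.28 (day 14 LAMZ). Their day 14 rises were 1.15 ± 0.17, adjusted p = 0.00292 and 1.31 ± 0.19, adjusted p = 0.00258. Shmt2 and Mthfd2 carry the mitochondrial one-carbon steps that follow serine. RPKM of Shmt2 was 17.2 and 16.2 without and 27.9 and 28.1 with LAMZ on day 7. On day 14, Shmt2 was at 15.6 and 16.9 without and 44.5 and 41.4 with LAMZ. It rose on both days (0.71 ± 0.11, adjusted p = 0.00543 and 1.35 ± 0.11, adjusted p = 0.00016). Mthfd2 had an RPKM of 8.29 and 6.54 in control cells and 11.03 and 10.95 in LAMZ-treated cells on day 7. On day 14, Mthfd2 was at 9.77 and 9.01 in control and 27.7 and 22.1 in LAMZ-treated cells, a rise there (1.31 ± 0.15, adjusted p = 0.000861). The proline synthesis enzymes, of which collagen needs much for its proline residues, were both higher on day 14. Aldh18a1 was at 35.6 and 29.2 (day 7 control), 41.7 and 36.6 (day 7 LAMZ), 24.2 and 26.8 (day 14 control) and 55.2 and 46.5 (day 14 LAMZ). Pycr1 was at 6.81 and 8.58 (day 7 control), 10.4 and 11.1 (day 7 LAMZ), 7.15 and 7.76 (day 14 control) and 15.7 and 15.9 (day 14 LAMZ). They rose on day 14 by 0.96 ± 0.15, adjusted p = 0.00314 and 0.99 ± 0.13, adjusted p = 0.00161.

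Of the 8 transporters tested, 7 were higher with LAMZ on day 14, Slc38a2 being the exception. Without Slc7a3, which passed the filter only through the LAMZ libraries of day 14, 6 of 7 were higher, beside 6.96% of all tested genes. On day 7, Slc7a1 was higher and Slc1a5 lower, beside 4.35% and 8.49% of all tested genes. The median log2 fold change of the 8 transporters was 0.46 on day 7 and 1.24 on day 14. Slc7a3 (chrX:101079210-101086020), a carrier of cationic amino acids, was below an RPKM of 1 except in LAMZ-treated cells of day 14. Its RPKM was 0.28 and 0 in control cells and 0.56 and 0.66 in LAMZ-treated cells on day 7, and 0.30 and 0.35 in control cells and 7.52 and 5.79 in LAMZ-treated cells on day 14, from 4, 0, 9, 13, 6, 6, 166 and 107 reads in that order, which gave 2.52 ± 0.20, adjusted p = 0.00016 on day 14. Slc6a9 (chr4:117834506-117875198), the glycine transporter GLYT1, was at RPKM 1.55 and 1.01 without and 2.28 and 1.49 with LAMZ on day 7. On day 14, Slc6a9 was at 3.33 and 2.58 without and 22.3 and 19.7 with LAMZ. The values were 0.34 ± 0.19, adjusted p = 0.292 on day 7 and 2.48 ± 0.19, adjusted p = 0.000118 on day 14. In both genes the 2 LAMZ libraries of day 14 stood apart from the other 6. Slc7a11, the cystine carrier known as xCT, was not tested, since its highest RPKM was 0.77, and its values were 0.13 and 0.19 (day 7 control), 0.12 and 0.065 (day 7 LAMZ), 0.27 and 0.30 (day 14 control) and 0.77 and 0.74 (day 14 LAMZ).

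Slc7a5 and Slc3a2 encode the light and heavy chain of LAT1, which imports large neutral amino acids such as leucine. Slc7a5 was at RPKM 3.86 and 4.91 (day 7 control), 7.78 and 6.47 (day 7 LAMZ), 7.53 and 9.37 (day 14 control) and 32.4 and 26.96 (day 14 LAMZ). Slc3a2 was at 16.9 and 12.7 (day 7 control), 19.5 and 20.1 (day 7 LAMZ), 28.3 and 29.2 (day 14 control) and 60.2 and 57.2 (day 14 LAMZ). They rose on day 14 (1.70 ± 0.17, adjusted p = 0.000391 and 1.00 ± 0.14, adjusted p = 0.00216). Slc7a1, the main carrier of arginine and lysine, had an RPKM of 3.88 and 4.37 in control cells and 8.97 and 7.40 in LAMZ-treated cells on day 7. On day 14, Slc7a1 was at 5.64 and 5.29 in control and 14.9 and 14.4 in LAMZ-treated cells. Slc7a1 rose on both days, by 0.84 ± 0.13, adjusted p = 0.00543 and 1.28 ± 0.13, adjusted p = 0.000425. Without the first day 7 LAMZ library, the day 7 value of Slc7a1 was 0.71 (adjusted p = 0.0522). Slc1a4 (ASCT1), a carrier of small neutral amino acids, was at 5.13 and 7.87 without and 10.5 and 9.68 with LAMZ on day 7. On day 14, Slc1a4 was at 6.17 and 5.47 without and 16.2 and 13.1 with LAMZ, a rise there (1.20 ± 0.19, adjusted p = 0.00347). Slc1a5 (ASCT2), the glutamine carrier, had an RPKM of 15.6 and 14.2 (day 7 control), 9.72 and 10.03 (day 7 LAMZ), 17.6 and 19.1 (day 14 control) and 32.8 and 29.5 (day 14 LAMZ). It was below control on day 7 (-0.54 ± 0.12, adjusted p = 0.0209) and above it on day 14 (0.73 ± 0.12, adjusted p = 0.00351), as was Atf5. The fall of Slc1a5 was lost in 3 of the 8 runs (-0.57 to -0.48), with the length and GC correction (-0.37, adjusted p = 0.0516) and with the day 7 groups fitted alone (adjusted p = 0.0663). Slc38a2 (SNAT2), which ATF4 is known to induce on amino acid shortage, had the highest RPKM of the transporters on day 7 but a day 14 value of -0.08 ± 0.16, adjusted p = 0.76, from 53.3 and 55.7 in control and 49.8 and 53.3 in LAMZ-treated cells.

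The folding and the supply genes were then set side by side. On day 14, 11 of 13 folding genes and 15 of 16 supply genes (14 of 15 without Slc7a3) were higher, with median log2 fold changes of 0.91 and 1.29. Of all tested genes, 6.96% were higher, with a median of -0.15. On day 7, 1 of 13 and 3 of 16 were higher and 0 and 1 lower, with medians of 0.27 and 0.48. Of all tested genes, 4.35% were higher and 8.49% lower, with a median of -0.08. At an unadjusted p under 0.05 in limma, 2 folding genes were higher. The day 7 counts of both groups depended on the scaling. Median centring, quantile normalization and the length and GC correction each gave 8 of 16 supply genes higher, with 1, 0 and 3 folding genes. All tested genes then had 857 of 12514, 679 of 12514 and 895 of 12186 higher. The same sum of RPKM gave 2 supply and 0 folding genes, beside 308 of 12670 tested genes. With each library scaled to the same sum of RPKM, the medians of day 14 were 0.54 and 0.97, and those of day 7 were -0.035 and 0.23. The medians of all tested genes were then -0.43 on day 14 and -0.31 on day 7. Under that scaling, the calls of P4hb (0.25, adjusted p = 0.23) and Asns (0.29, adjusted p = 0.138) on day 7 and of Hsp90b1 (0.31, adjusted p = 0.22), Dnajb9 (0.35, adjusted p = 0.142) and Dnajc3 (0.13, adjusted p = 0.446) on day 14 were lost. Of these 2 groups, Slc6a9, Slc7a3, Asns, Phgdh and Slc7a5 had the highest day 14 values, followed by Hspa5. The groups were not tested against each other, because their genes were chosen with results of these data known.

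**Figure D3:**
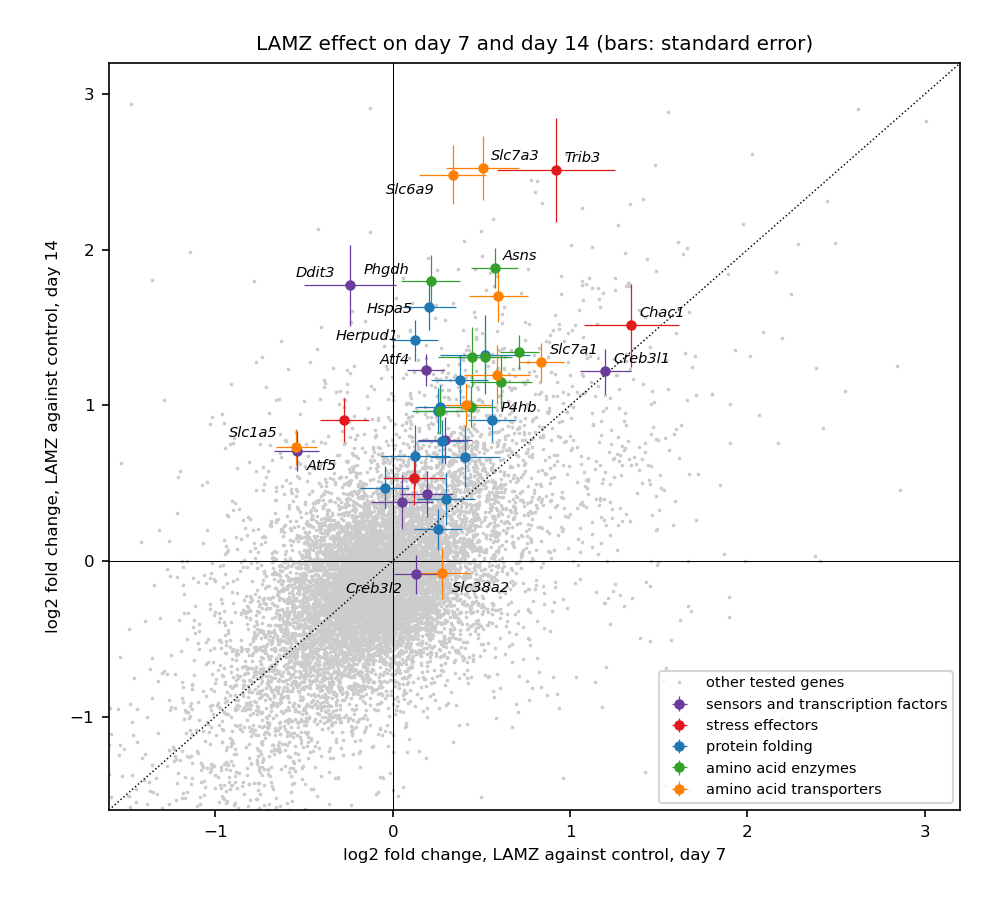
Log2 fold change of LAMZ against control on day 7 (horizontal) and day 14 (vertical) for the 41 tested genes, colored by role with standard errors, over the other tested genes in grey. Axes run from -1.6 to 3.2, which leaves out 311 tested genes, and the dotted line marks equal values. Most of the 41 genes lie above the line, and Creb3l1 and Chac1 lie close to it.

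Whether the effect of LAMZ differed between the days was tested as the difference of the 2 log2 fold changes. It was larger on day 14 for 9 of the 41 genes and smaller for none in limma (25 and 0 at an unadjusted p under 0.05), whereas 0.312% of all tested genes were called in each direction. These were Atf4 (1.04 ± 0.15), Atf5 (1.25 ± 0.18), Hspa5 (1.43 ± 0.21), Herpud1 (1.29 ± 0.19), Asns (1.31 ± 0.19), Phgdh (1.59 ± 0.23), Slc7a3 (2.02 ± 0.29), Slc1a5 (1.28 ± 0.16) and Slc6a9 (2.14 ± 0.27), with adjusted p values from 0.0287 to 0.0369. They include 5 supply genes and 2 genes of the folding group, Hspa5 and Herpud1, the latter with a role in removing misfolded proteins. Without Slc7a3, 8 of 40 genes and 4 of 15 supply genes were called. Sesn2 (1.18 ± 0.20, adjusted p = 0.0502) and Ddit3 (2.01 ± 0.36, adjusted p = 0.0602) came close to the threshold. The calls did not withstand the loss of a library, and the calls of this contrast over all tested genes became fewer in each such run too. With any 1 of the 8 libraries left out, limma called none of the 9 (adjusted p from 0.0522 to 0.157), although the log2 differences stayed between 0.99 and 2.34 and 20 to 27 of the 41 genes were larger on day 14 at an unadjusted p under 0.05.

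Day 14 was next compared with day 7 within control cells, the background against which LAMZ acted. In control cells, 7 of the 41 genes rose and none fell in limma (12 and 4 at an unadjusted p under 0.05), against 2.46% and 2.4% of all tested genes, or 4.86% in either direction. Those that rose were Atf5 (1.36 ± 0.13, adjusted p = 0.00429), Trib3 (2.44 ± 0.33, adjusted p = 0.0109), Chac1 (1.90 ± 0.27, adjusted p = 0.0121), Ddit3 (1.26 ± 0.26, adjusted p = 0.0385), Slc3a2 (0.93 ± 0.14, adjusted p = 0.0146), Slc7a5 (0.81 ± 0.17, adjusted p = 0.0388) and Asns (0.65 ± 0.13, adjusted p = 0.0367). The libraries of the 2 days did not overlap in 18 genes that were higher and 10 that were lower on day 14, beside 21% and 28.5% of all tested genes. No folding gene was called in limma, where 2.46% of all tested genes were higher. With the same sum of RPKM, with the same sum without small structural RNAs or when quantile normalized, 1 was called higher. All tested genes then had 964 of 12670, 396 of 12514 and 414 of 12514 higher. The length and GC correction gave 0 higher and 2 lower folding genes, and 8 and 2 over the 41 genes. All tested genes there gave 409 and 411 of 12186. Of the 13 folding genes, 1 was higher and 4 were lower at an unadjusted p under 0.05. The folding median was -0.18, or 0.071 with each library scaled to the same sum of RPKM. That of all tested genes was -0.045, or 0.16 under that scaling. The median of the supply genes was 0.29, with 3 called higher, or 0.51 with 6 called higher under that scaling, which gave 12 calls over the 41 genes. Atf5 alone was called in every run that left out 1 library, and either day 14 control library left out reduced the count to 1. Macrophage markers rose in the same comparison, in 11 of 13 cases, with the sums given above.

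In LAMZ-treated cells, 25 of the 41 genes rose from day 7 to day 14 and none fell in limma (29 and 0 at an unadjusted p under 0.05), against 5.1% and 9.26% of all tested genes. Without Slc7a3, 24 of 40 rose. The median log2 fold change was 0.77, beside -0.11 for all tested genes. The rise was seen in 4 of 8 sensors and transcription factors, 3 of 4 effectors, 6 of 13 folding genes and 12 of 16 supply genes (11 of 15 without Slc7a3), with medians of 0.32 for folding and 1.13 for supply genes. Trib3 (4.04 ± 0.33, adjusted p = 0.000628) and Ddit3 (3.27 ± 0.26, adjusted p = 0.000552) rose most. They were followed by Slc6a9 (2.94 ± 0.19, adjusted p = 0.000381) and Atf5 (2.61 ± 0.13, adjusted p = 0.000233). Among the folding genes, Herpud1 (1.78 ± 0.13, adjusted p = 0.000552), Hspa5 (1.37 ± 0.15, adjusted p = 0.00166), Sdf2l1 (1.22 ± 0.25, adjusted p = 0.0181), Dnajb9 (0.85 ± 0.19, adjusted p = 0.0254), Manf (0.63 ± 0.16, adjusted p = 0.0388) and Dnajc3 (0.49 ± 0.14, adjusted p = 0.0483) rose. Of those not called, Calr, P4hb, Canx, Pdia3 and Hsp90b1 had values of -0.01, -0.11, -0.27, -0.09 and -0.03. Pdia4 and Pdia6 were at 0.23 and 0.32. The calls of Ern1, Dnajb9, Dnajc3, Sdf2l1, Manf, Psph, Shmt2, Pycr1 and Slc7a1 were lost in at least 2 of the 8 runs that leave out 1 library. Over the 8 runs, Shmt2 was at 0.55 to 0.65, Pycr1 at 0.47 to 0.56, Slc7a1 at 0.65 to 0.90, Ern1 at 0.67 to 0.96, Psph at 1.00 to 1.29, Dnajb9 at 0.72 to 0.98, Dnajc3 at 0.37 to 0.62 and Manf at 0.44 to 0.81. Sdf2l1 had the widest range of these 9, from 0.77 without the first day 14 LAMZ library to 1.67. The count was lowest, at 16, without the second day 7 LAMZ library.

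**Figure D4:**
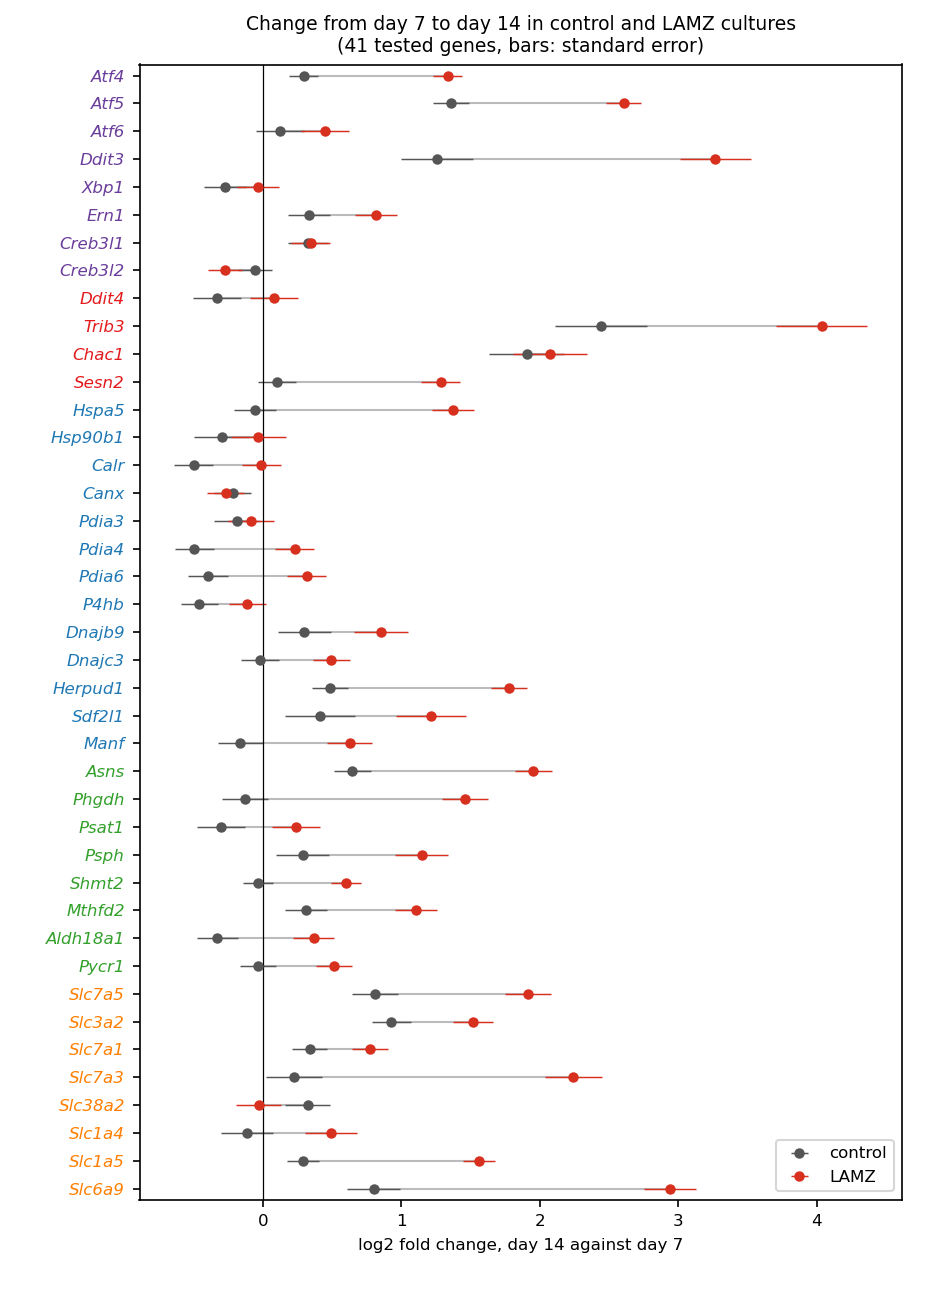
Log2 fold change of day 14 against day 7 for the 41 tested genes in control (grey) and LAMZ-treated (red) cells, with standard errors and gene names colored by role as in the other plots. The red points lie to the right of the grey ones for Atf4, Ddit3, Hspa5, Asns, Slc7a3 and Slc6a9, whereas those of Creb3l1 and Canx nearly coincide.

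Other genes of the same pathways were taken as whole lists. The counts of each list stand beside 6.96% higher and 16% lower of all tested genes on day 14, and 4.35% and 8.49% on day 7. Of 15 tested further targets of ATF4, 10 were higher with LAMZ on day 14 and none was lower, and on day 7, 3 were higher and 2 lower. The highest day 14 values were those of Fgf21 (1.87 ± 0.31, adjusted p = 0.00455), an endocrine factor, Cth (1.82 ± 0.32, adjusted p = 0.00592), a cysteine synthesis enzyme, and Aldh1l2 (1.80 ± 0.18, adjusted p = 0.000387), a mitochondrial folate enzyme. Both Fgf21 and Cth were low and passed the filter only through the LAMZ libraries of day 14. Without them, 8 of 13 targets were higher on day 14. RPKM of Fgf21 was 0.28 and 0.30 (day 7 control), 0.99 and 0.40 (day 7 LAMZ), 0 and 0.70 (day 14 control) and 4.69 and 3.02 (day 14 LAMZ). That of Cth was 0 and 0.83 (day 7 control), 0.34 and 0.48 (day 7 LAMZ), 0.60 and 0.16 (day 14 control) and 4.55 and 3.16 (day 14 LAMZ). On day 7, Vldlr, a lipoprotein receptor (1.34 ± 0.17, adjusted p = 0.00226), Stc2 (1.09 ± 0.18, adjusted p = 0.00717) and Aldh1l2 (1.07 ± 0.18, adjusted p = 0.00771) were higher. Of the 20 cytosolic tRNA synthetases, which charge tRNAs with amino acids, 13 were higher on day 14 and none was lower, with Wars (1.23 ± 0.14, adjusted p = 0.00082), Nars (1.18 ± 0.15, adjusted p = 0.00121) and Sars (1.16 ± 0.12, adjusted p = 0.000608) in front. Iars was called on day 7 (0.72 ± 0.12, adjusted p = 0.00922). The medians of day 14 were 0.81 for the ATF4 targets and 0.79 for the synthetases.

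Further enzymes and transporters of amino acids were called in both directions. Of all tested genes, 6.96% were higher and 16% lower on day 14, and 4.35% and 8.49% on day 7. Of 19 further enzymes tested, 5 were higher and 2 lower on day 14, among them Bcat1, which breaks down branched-chain amino acids (1.48 ± 0.15, adjusted p = 0.000439), and Mthfd1l (1.23 ± 0.14, adjusted p = 0.000907) as higher genes. Without Prodh, which passed the filter only through the LAMZ libraries of day 14, 4 of 18 were higher. Glul, glutamine synthetase, was lower (-1.61 ± 0.14, adjusted p = 0.000231). On day 7, 2 were higher and 2 lower. RPKM of Glul was 17.3 and 21.2 in control cells and 7.62 and 9.30 in LAMZ-treated cells on day 7. On day 14, Glul was at 21.7 and 22.97 in control and 6.81 and 6.53 in LAMZ-treated cells. Of 14 further transporters tested, 2 were higher and 4 lower on day 14, with Slc1a3, a glutamate carrier (-1.68 ± 0.16, adjusted p = 0.00031), and Slc7a8 (-0.83 ± 0.16, adjusted p = 0.0086) lower and Slc38a4 higher (0.89 ± 0.11, adjusted p = 0.00133). In that list, 2 were higher and 2 lower on day 7. After centering each library on its median, the transporters on day 14 split into 4 higher and 2 lower. All tested genes then split into 1608 and 1249 of 12514. With the same sum of RPKM in each library, the enzymes split into 5 higher and 8 lower. All tested genes then split into 474 and 5422 of 12670.

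Of 20 further ER chaperones and oxidoreductases, 8 were higher and none lower on day 14, and 1 was higher on day 7. The genes in front were Creld2 (1.74 ± 0.28, adjusted p = 0.0035), Hyou1, a large chaperone that serves BiP (1.41 ± 0.14, adjusted p = 0.000484), and Dnajb11 (0.64 ± 0.16, adjusted p = 0.0253), while on day 7 it was Ero1l, an oxidase of disulfide bond formation (1.19 ± 0.19, adjusted p = 0.00744). In ER-associated degradation, 3 of 17 were higher on day 14, namely Derl3 (1.55 ± 0.22, adjusted p = 0.00227), Sel1l (0.65 ± 0.12, adjusted p = 0.00812) and Syvn1 (0.53 ± 0.14, adjusted p = 0.0266), and Syvn1 was lower on day 7 (-0.53 ± 0.14, adjusted p = 0.0432). Derl3 passed the filter only through the LAMZ libraries of day 14, and without it 2 of 16 were higher. The day 7 call of Syvn1 was lost when the libraries were median centred (-0.41, adjusted p = 0.0811), quantile normalized (-0.42) or corrected for length and GC content (-0.35), and its day 14 call with the same sum of RPKM (0.26, adjusted p = 0.153). Of 25 genes of ER entry and N-glycosylation, 11 were higher and 1 lower on day 14, with Ostc (0.74 ± 0.17, adjusted p = 0.0177), Rpn1 (0.74 ± 0.12, adjusted p = 0.00355) and Ssr2 (0.69 ± 0.13, adjusted p = 0.00648) in front, and 2 were higher on day 7. With the same sum of RPKM in each library, the chaperones on day 14 split into 2 higher and 4 lower. The split was 1 and 4 in degradation and 1 and 2 in ER entry, beside 474 and 5422 of 12670 tested genes. Under that scaling 7 ATF4 targets were higher and 1 lower and 11 synthetases higher. Of 16 genes of the stress kinases and of eIF2 control, 2 were higher and 1 lower on day 14, beside 6.96% and 16% of all tested genes. The split was 1 and 4 with the same sum of RPKM. It was 4 and 0 when median centred, beside 1608 and 1249 of 12514 tested genes. Ppp1r15a, the phosphatase subunit that reverses eIF2α phosphorylation, rose (1.48 ± 0.19, adjusted p = 0.00147), as did Eif2b2 (0.57 ± 0.15, adjusted p = 0.0269), and Eif2ak2, the kinase that senses double-stranded RNA, was lower (-0.90 ± 0.21, adjusted p = 0.0187), as on day 7 (-0.78 ± 0.21, adjusted p = 0.0481). Neither Eif2ak2 call was made when the libraries were median centred (-0.71 on day 14, -0.67 on day 7), quantile normalized (-0.70 and -0.68) or corrected for length and GC content (-0.67 and -0.72).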

How the data were processed

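RNA from 8 samples was sequenced on an Ion Proton instrument. The deposited values are RPKM per gene, which the authors computed with CLC Genomics Workbench from reads mapped to mm10 (per the submitters' processing notes), and no scaling between libraries is stated. Each file gave 1 value per symbol, and 4 repeated date-like entries were dropped, leaving 51822 symbols. The column of the first day 7 LAMZ file carries a different name in its header, and its sample was taken from the record. There were 0 unused columns of per-sample values. RPKM summed to between 286747 and 437003 per library. Read depth was recovered with GENCODE union exon lengths (GRCm38, 47508 symbols matched). Of 833 to 1462 low values of single-exon genes per library, 97.0% to 98.2% were whole reads within 0.05, and reads give counting precision only.

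The 12514 genes for which 2 or more of the 8 libraries reached an RPKM of 1 were fitted as log2(RPKM + 1) in limma 3.58.1 (R 4.3.3, moderated with a mean trend) with all 4 groups, leaving 4 residual degrees of freedom. The contrasts were LAMZ against control on day 7 and day 14, the difference between these, and day 14 against day 7 in each treatment. A gene was called at a Benjamini-Hochberg adjusted p under 0.05. The procedure was tested on simulated data with independent libraries and as many genes raised as lowered. Since most genes called between LAMZ and control were lower, the simulation does not measure the error here. The members, the lists and the tests were chosen with earlier results of these data known. Values of all libraries are given for members called in at least 1 contrast and for Atf4, Ddit3, Xbp1, Hspa5 and Asns, and the wider lists are described by up to 3 called genes with the largest absolute log2 fold change per LAMZ contrast. Promoter windows were taken from RefSeq (GRCm38.p6) and searched for motifs on both strands. Of the marker lists, osteoblast (7 higher, 0 lower on day 7, and 7 and 0 on day 14), macrophage (0 and 12, then 0 and 13) and chondrocyte genes (4 and 0, then 4 and 1) are described with the results. For adipocytes 2 of 5 markers were tested (0 and 2 on day 14), for osteoclasts 3 of 6 (1 and 0), for endothelium 1 of 5 (0 and 1) and for muscle 1 of 5 (1 and 0). Alternatives changed the pseudocount (0.1 and 5), the filter, the scaling, the trend, the replicate block, the libraries and the groups fitted, and corrected for length and GC content.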

Additional observations from a re-analysis of the deposited data

Results flagged for a closer look

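For 9 of the 41 tested genes, the effect of LAMZ differed between day 14 and day 7 by the interaction test in limma, with the log2 fold change larger on day 14 in each case. The difference on the log2 scale was 2.14 for Slc6a9 (adjusted p = 0.0287) and 1.28 for Slc1a5 (adjusted p = 0.0302). At an adjusted p of 0.0369, it was 2.02 for Slc7a3, 1.59 for Phgdh, 1.43 for Hspa5, 1.31 for Asns, 1.29 for Herpud1, 1.25 for Atf5 and 1.04 for Atf4. None of these calls was made when any 1 of the 8 libraries was left out. Without Slc7a3, which passed the filter only through the LAMZ libraries of day 14, 8 of 40 genes were called. Atf5 and Slc1a5 were lower on day 7 and higher on day 14. However, the day 7 call of Atf5 was lost when median centred, quantile normalized or with no filter. Both day 7 calls were lost with the length and GC correction and with the day 7 groups fitted alone. Some runs that leave out 1 library lost them too, with -0.55 to -0.43 for Atf5 and -0.57 to -0.48 for Slc1a5.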

How the results depend on the processing

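The 34 calls of day 14 were 30 to 34 with 1 library left out, and 27 of the 34 genes were called in all 8 such runs, while the 30 calls of the average over both days were 27 to 32. The 8 calls of day 7 were 4 with no filter, 14 with the length and GC correction, 2 with each comparison fitted on its own groups, and 2 to 9 with 1 library left out (2 genes in all runs, Creb3l1 and Shmt2). The 9 calls of the difference were 4 with a pseudocount of 0.1, 0 with no filter (25 genes at an unadjusted p under 0.05), 2 with no trend, and 0 to 0 with 1 library left out. The 7 of control over time were 4 with no filter, 12 with the same sum of RPKM, 0 in groups alone (11 unadjusted), 4 with no trend, and 1 to 5 with 1 library left out. The 25 of LAMZ over time were 16 to 24. The replicate numbers mark no stated pairing, and deviations of libraries with the same number correlated at -0.0342 to 0.062. With the replicate block the difference had 1 call (25 genes unadjusted).

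Medians moved with the scaling. On day 7 the folding median was -0.035 with the same sum (0.16 to 0.35 with 1 library left out), and the supply median 0.33 with a pseudocount of 5, 0.23 with the same sum and 0.60 with the length and GC correction (0.45 to 0.55). On day 14 the folding median was 0.54 with the same sum and 1.10 when median centred (0.81 to 1.01). The supply median was 0.92 with a pseudocount of 5, 0.97 with the same sum, 1.16 with the same sum without small structural RNAs (chosen after seeing the data), 1.48 when median centred and 1.45 with the length and GC correction (1.17 to 1.37). Over time in control, folding was 0.071 with the same sum (-0.32 to -0.066), and supply 0.17 with a pseudocount of 5 and 0.51 with the same sum (0.16 to 0.31). Over time in LAMZ, folding was 0.51 with the same sum (0.16 to 0.48), and supply 1.25 and 0.81 with pseudocounts of 0.1 and 5 and 1.29 with the same sum (0.98 to 1.27). The same sum moved the median of all genes to -0.31 on day 7, -0.43 on day 14 and 0.16 over time in control, and the share of calls that were higher from 33.9% to 8.601% on day 7 and from 30.3% to 8.04% on day 14, against 53.5% and 56.3% when median centred. The cause of these changes was not tested. With 2 libraries a group and 4 residual degrees of freedom, small changes, above all of genes with few reads, may not be detectable.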
